A study of Mus musculus with 16 samples.

Results

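The 10 genes described here are Trp53, which encodes the tumor suppressor p53, its inhibitors Mdm2 and Mdm4, the CDK inhibitor genes Cdkn1a, Cdkn1b, Cdkn2a, Cdkn2c and Cdkn2d, and the p53 target genes Ccng1 and Zmat3. They were chosen by symbol. All 10 have a row among the 15080 genes of the tumor table, and 8 have one among the 13344 genes of the stroma table. Cdkn1a and Cdkn2a have no row in the stroma table and were not analysed there. The tables hold RNA-sequencing of a transplanted mouse leukemia and of the marrow cells around it, in hosts with and without IL-6. BCR-ABL+, Arf-/- B-ALL cells (B-cell acute lymphoblastic leukemia) that carried mCherry were given by tail vein, 500000 cells per mouse, to C57BL/6J hosts that were 6 to 8 weeks old and either wild type (WT) or IL-6 KO. Marrow was taken on day 8 from hosts that had no chemotherapy. Red cells were lysed, and live mCherry+ cells (tumor) and mCherry- cells (stroma) were sorted, with 4 libraries for each host genotype and compartment. The leukemia was therefore the same BCR-ABL+, Arf-/- line in both hosts, and only the host differed in IL-6. The Arf-/- genotype belongs to the injected cells and not to the host cells of the stroma. How the Arf allele was made is not given in the sources used here. The labels number the libraries 1 to 4 and do not say whether each came from a separate mouse, so the p-values measure the spread between these libraries.

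p53 is a transcription factor that is held at a low level by Mdm2, a ubiquitin ligase that marks it for degradation and is itself a p53 target gene. Mdm4 is a relative of Mdm2 that binds p53 and blocks its activity, and p19Arf, 1 of the products of Cdkn2a, binds Mdm2 and so releases p53. CDK inhibitors of the Cip/Kip family (p21 from Cdkn1a, p27 from Cdkn1b) bind cyclin and CDK complexes, whereas those of the INK4 family (p16Ink4a from Cdkn2a, p18Ink4c from Cdkn2c, p19Ink4d from Cdkn2d) bind CDK4 and CDK6 and keep Rb in its active form. Arf loss is a frequent event in BCR-ABL+ lymphoid leukemia.

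Cdkn2a (ENSMUSG00000044303.6) lies on the minus strand at chr4:89274471-89294653 (GRCm38, GENCODE vM21). Its protein-coding transcripts start at separate first exons and share exon 2 at chr4:89276645-89276985. Cdkn2a-201 starts with 207 nt at chr4:89281986-89282192 and encodes p16Ink4a, and Cdkn2a-202 starts with 320 nt at chr4:89294334-89294653 and encodes p19Arf. The 30 nt across the junction of exon 1 and exon 2 are shown because they are where the transcripts part, with the first-exon bases in capitals and exon 2 in lower case.
Cdkn2a-201: CGTACCCCGATTCAGgtgatgatgatgggc
Cdkn2a-202: GGAATCCTGGACCAGgtgatgatgatgggc
The deposited values are 1 number per gene and library, so a value of Cdkn2a does not say which first exon the reads came from.

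RefSeq promoter windows (GRCm38.p6, 250 nt before to 50 nt after the start) were found for 9 of the 10 genes, 13 windows in all. The windows of Mdm2, Mdm4 and Cdkn2d, whose levels passed the test in tumor, and of Cdkn1a, the best known p53 target, are shown with each match to the p53 half-site in capitals. The half-site is the same on both strands. Mdm4 and Cdkn1a each have another window further downstream that is not shown.
Mdm2 (chr10:117710709-117711008, minus strand): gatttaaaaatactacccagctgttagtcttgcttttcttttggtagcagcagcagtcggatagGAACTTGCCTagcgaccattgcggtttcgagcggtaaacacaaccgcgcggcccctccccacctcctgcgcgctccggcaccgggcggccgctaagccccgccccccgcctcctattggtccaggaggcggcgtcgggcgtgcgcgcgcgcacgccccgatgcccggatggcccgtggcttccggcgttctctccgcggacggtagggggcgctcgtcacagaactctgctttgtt
Mdm4 (chr1:133030538-133030837, minus strand): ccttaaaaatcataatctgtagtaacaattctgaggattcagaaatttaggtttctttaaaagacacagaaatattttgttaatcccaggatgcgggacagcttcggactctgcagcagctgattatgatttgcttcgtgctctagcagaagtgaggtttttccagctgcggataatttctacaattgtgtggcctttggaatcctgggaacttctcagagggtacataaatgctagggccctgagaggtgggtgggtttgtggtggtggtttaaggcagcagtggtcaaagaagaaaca
Cdkn2d (chr9:21291160-21291459, minus strand): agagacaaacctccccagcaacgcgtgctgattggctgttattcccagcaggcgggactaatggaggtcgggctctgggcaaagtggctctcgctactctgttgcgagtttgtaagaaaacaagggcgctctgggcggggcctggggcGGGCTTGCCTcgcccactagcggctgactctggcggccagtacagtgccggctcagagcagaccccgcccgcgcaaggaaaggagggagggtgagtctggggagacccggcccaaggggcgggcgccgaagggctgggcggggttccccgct
Cdkn1a (chr17:29090729-29091028, plus strand, the upstream start): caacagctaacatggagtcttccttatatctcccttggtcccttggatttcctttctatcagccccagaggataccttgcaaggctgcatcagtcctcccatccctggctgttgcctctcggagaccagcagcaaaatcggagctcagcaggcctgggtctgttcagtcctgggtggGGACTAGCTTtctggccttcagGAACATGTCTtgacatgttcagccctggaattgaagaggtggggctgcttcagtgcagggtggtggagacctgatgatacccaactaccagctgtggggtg
The p53 half-site was found in 5 of the 13 windows (1 each of Trp53, Mdm2, Cdkn1a, Cdkn2d and Ccng1) and in 8.36% of all 32851 windows searched. The windows searched leave out 1 chromosome, which holds none of the 10 genes. The upstream Cdkn1a window held 2 matches. The downstream Cdkn1a window (chr17:29093519-29093818) held none, and neither did both Mdm4 windows. GGGCGG was found on either strand in 7 of the 13 windows and in 35.7% of all windows, with 5 matches in Cdkn2d and 2 in Mdm2. Searched likewise, TATAAA was found in 1 of the 13 windows and in 13.6% of all windows. CATG was found in 2 of the 13 and in 61.1% of all windows, and CACGTG in 2 of the 13 and in 7.15%. TTCNNNGAA was found in 0 of the 13 and in 8.30% of all windows. These are letter matches and not measured binding.

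The values are normalized counts, which the authors scaled within each table, so levels were tested between genotypes within tumor and within stroma only. B lineage markers were summed to 158203 to 162119 normalized counts in WT tumor, 167262 to 177880 in IL-6 KO tumor and 3131 to 9207 in the stroma libraries, where erythroid markers gave 59936 to 251823. In tumor, 13 of 15 neutrophil markers were called higher in IL-6 KO hosts, and their sum was 4963 to 5661 in WT and 7944 to 19262 in IL-6 KO libraries. The monocyte and macrophage sum was 1936 to 2304 in WT and 2375 to 2991 in IL-6 KO tumor, so none of these 3 sums overlapped between genotypes. Single markers did not all follow the sums. Of 14 B lineage markers tested in tumor, 2 were called higher and 3 lower. Of 11 monocyte and macrophage markers, 2 were called, both higher. Mrc1, the largest part of the latter sum, overlapped at 1331 to 1490 in WT and 1227 to 1712 in IL-6 KO tumor. In stroma, Mrc1 was at 0.00 to 9.84 in WT and at 0.00 in all IL-6 KO libraries. The part of these sums in the tumor differences given here was not tested. The sum of all normalized counts did not overlap between genotypes, with 38817792 to 44552085 in WT tumor against 47267047 to 55592959 in IL-6 KO tumor and 8805689 to 17470735 in WT stroma against 33973016 to 44191950 in IL-6 KO stroma. The median Spearman rho of a library with the others of its group was 0.980 to 0.988 in tumor and 0.745 to 0.854 in stroma. Il6 has no row in either table, so the host genotype was not checked with it.

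In leukemic cells, Mdm2 and Cdkn2d were higher and Mdm4 was lower in IL-6 KO hosts than in WT hosts, each by less than 1.5-fold. Trp53 itself, Cdkn2a, Cdkn1b, Cdkn2c, Ccng1 and Zmat3 did not pass the test, and Cdkn1a missed the threshold by a small margin. The test was limma on log2(normalized count + 1), two-sided and adjusted by Benjamini-Hochberg over the 14493 tumor genes with a mean over 10. At an adjusted p under 0.05 it called 3 of the 10 genes, 2 higher and 1 lower, where 19.8% of all tumor genes were called, 10.6% higher and 9.16% lower. The genotypes did not overlap for 5 of the 10, 3 with IL-6 KO above WT and 2 below, where 25.6% of all tumor genes did not overlap, 13.6% above and 12.0% below. An unadjusted p under 0.05 was found for 4 of the 10 and for 35.1% of all tumor genes. Fewer cells of a type and less RNA per cell cannot be told apart in such bulk samples.

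Trp53 was measured at 5813, 5538, 5602 and 5708 normalized counts in WT tumor libraries 1 to 4 and at 6057, 5743, 6499 and 6230 in IL-6 KO tumor. It is on the plus strand at chr11:69580359-69591873. IL-6 KO libraries ranged higher, but the lowest of them was within the WT range. The log2 fold change of IL-6 KO over WT was 0.11 ± 0.06 (SE, n = 4 per group, 95% interval -0.02 to 0.25, limma adjusted p = 0.206). A processed pseudogene, Trp53-ps, shares 353 nt with Trp53 at 97.7% identity and has no row in either table, and reads from this stretch could be split between them.

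Mdm2 (chr10:117688875-117710758) was measured at 1555, 1531, 1959 and 1742 normalized counts in WT tumor and at 2202, 2121, 2222 and 2012 in IL-6 KO tumor. Every IL-6 KO library was above every WT library. The mean was 1697 ± 199 (SD, n = 4) in WT hosts against 2139 ± 95.3 (SD, n = 4) in those without IL-6, a 1.27-fold increase (95% interval 1.10 to 1.46, limma adjusted p = 0.0287). The call held under all 9 alternatives that keep all libraries (adjusted p 0.0109 to 0.0461). It did not hold without WT library 1, 2 or 4 or IL-6 KO library 1, 3 or 4 (adjusted p 0.0501 to 0.0775 in these 6 fits), while the log2 fold change stayed between 0.29 and 0.41.

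Mdm4 (chr1:132959484-133030561) was measured at 3027, 3238, 3200 and 3438 normalized counts in WT tumor and at 2623, 2119, 2592 and 2663 in IL-6 KO tumor. Every IL-6 KO library was below every WT library, and IL-6 KO library 2 was the lowest. The mean fell from 3226 ± 169 (SD, n = 4) to 2499 ± 255 (SD, n = 4), or 0.772-fold (95% interval 0.675 to 0.884, limma adjusted p = 0.0171). The call held with each library left out in turn, with an adjusted p of at most 0.0451. It was lost once the GC content and length trend of each library was taken out, where the log2 fold change was -0.15 (adjusted p = 0.283).

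The paired inhibitors thus moved in opposite directions, and the normalized count of Mdm2 over that of Mdm4 was 0.473 to 0.612 in WT tumor and 0.756 to 1.00 in IL-6 KO tumor. This ratio was formed after the values were seen and was not tested. Its ranges could not overlap, since every Mdm2 value was higher and every Mdm4 value lower in IL-6 KO than in WT tumor. The ratio of Mdm2 to Trp53 was 0.267 to 0.350 in WT and 0.323 to 0.369 in IL-6 KO tumor, and overlapped.

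**Figure D1:**
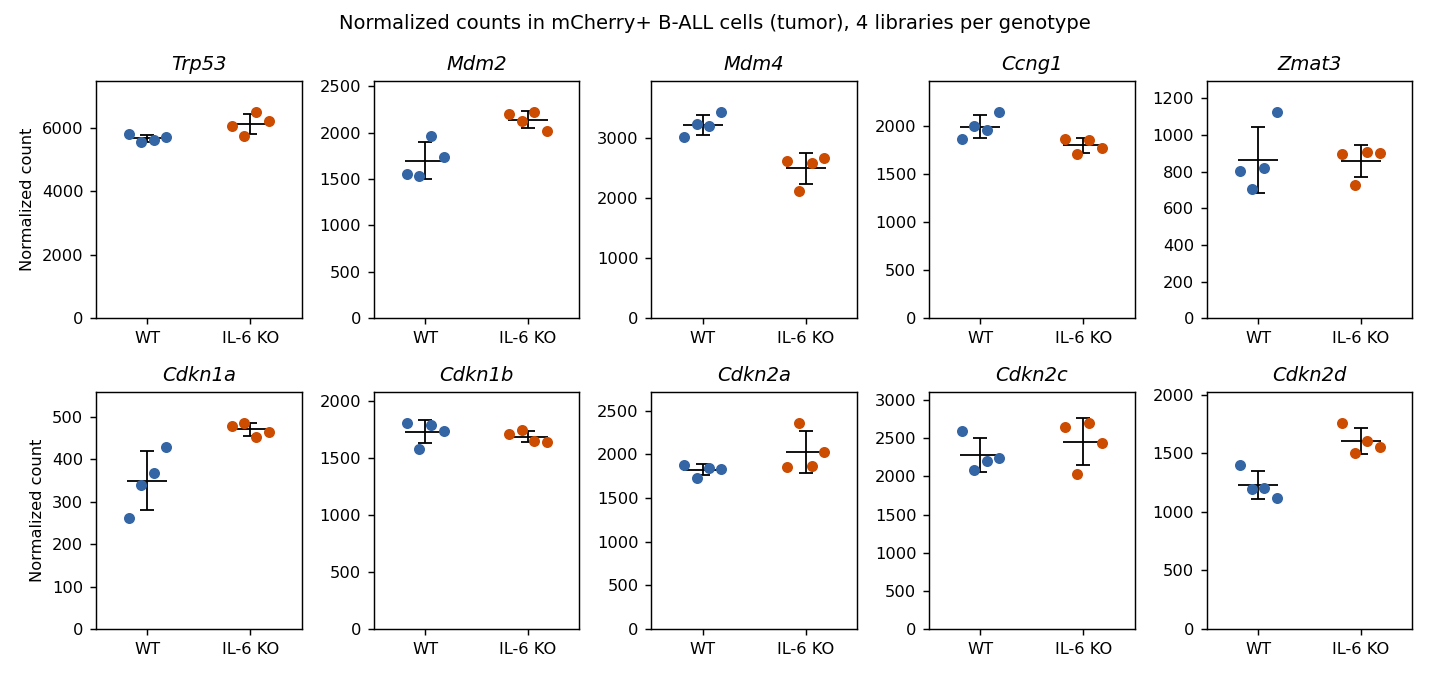
Normalized counts of the 10 genes (y axes, each from 0) in the 4 WT and 4 IL-6 KO tumor libraries, with a point for each library in order of its number and bars for the mean ± SD. IL-6 KO points lie above all WT points for Mdm2, Cdkn1a and Cdkn2d and below them for Mdm4 and Ccng1.

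Among the CDK inhibitors, Cdkn2d (p19Ink4d, chr9:21288410-21291407) was measured at 1396, 1198, 1207 and 1117 normalized counts in WT tumor and at 1762, 1500, 1605 and 1556 in IL-6 KO tumor. No library of the groups overlapped. The mean was 1229 ± 118 (SD, n = 4) in WT hosts against 1606 ± 112 (SD, n = 4) in those without IL-6, a 1.31-fold increase (log2 fold change 0.39, 95% interval 0.19 to 0.59, limma adjusted p = 0.0171). Without IL-6 KO library 1 the adjusted p was 0.0553. With the GC content and length trend removed, the log2 fold change was 0.19 (adjusted p = 0.200) in place of 0.39.

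Cdkn1a (p21, chr17:29090976-29100727) was measured at 261, 339, 368 and 430 normalized counts in WT tumor and at 480, 487, 452 and 465 in IL-6 KO tumor. The IL-6 KO libraries lay close together and above all WT libraries, which spread widely. The fold was 1.37 (95% interval 1.09 to 1.71), which did not pass the threshold (limma adjusted p = 0.0554). Without WT library 4, the highest of its group, the adjusted p was 0.0297. It was also under the threshold with array weights (0.0476) and with only genes of a mean over 50 (0.0492). It was above it in the other fits (adjusted p 0.0524 to 0.150), the highest with the GC content and length trend removed, where the log2 fold change was 0.32. A transcript of AC167363.2, which has no row in either table, matches 262 nt of Cdkn1a at 100% identity.

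Cdkn2a was measured at 1883, 1735, 1845 and 1832 normalized counts in WT tumor and at 1856, 2364, 1865 and 2029 in IL-6 KO tumor. All 8 libraries of the Arf-/- leukemia thus held Cdkn2a RNA, and IL-6 KO library 2 was the highest. The log2 fold change was 0.15 ± 0.09 (SE, n = 4 per group, 95% interval -0.05 to 0.35, limma adjusted p = 0.267). It was -0.15 (adjusted p = 0.173) with the GC content and length trend removed.

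Cdkn1b (p27, chr6:134920401-134925513) ranged from 1585 to 1812 normalized counts in WT tumor and from 1643 to 1746 in IL-6 KO tumor, so the IL-6 KO range lay within the WT range. Its log2 fold change was -0.04 (95% interval -0.19 to 0.12, limma adjusted p = 0.758). Cdkn2c (p18Ink4c, chr4:109660876-109667189) ranged from 2086 to 2594 in WT and from 2029 to 2705 in IL-6 KO tumor, with a log2 fold change of 0.10 (95% interval -0.14 to 0.34, limma adjusted p = 0.535). For both genes the ranges overlapped. Of the CDK inhibitor genes outside the 10, Cdkn3 had overlapping ranges (log2 fold change -0.24, limma adjusted p = 0.161), Cdkn1c had no row in the tumor table, and Cdkn2b had none in either table.

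Ccng1 (chr11:40748552-40755311), which encodes cyclin G1, was measured at 1873, 2008, 1964 and 2151 normalized counts in WT tumor and at 1868, 1708, 1860 and 1771 in IL-6 KO tumor. The groups did not overlap, although the lowest WT and the highest IL-6 KO library were nearly equal. The log2 fold change was -0.15 (95% interval -0.31 to 0.01, limma adjusted p = 0.167), and 0.11 (adjusted p = 0.331) with the GC content and length trend removed. Zmat3 (chr3:32334792-32366014), which encodes an RNA-binding zinc finger protein, ranged from 705 to 1126 in WT and from 725 to 907 in IL-6 KO tumor. Its log2 fold change was 0.01 (95% interval -0.32 to 0.33, limma adjusted p = 0.978).

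The size of these differences was read beside the GC content of the transcripts, since genes of high and low GC content differed between the genotypes as groups. Across the 14483 tumor genes with a GC content, those with a GC content of at most 44.7% had a median log2 fold change of -0.22 and those of at least 54.4% one of 0.21. Spearman's rho between GC content and log2 fold change was 0.402, across genes, which are not independent replicates. Among the 10 genes, GC content ran from 40.8% in Ccng1 to 60.2% in Cdkn2a, and was 43.3% in Mdm4, 46.2% in Mdm2 and 55.8% in Cdkn2d. With each library's trend removed, 1475 tumor genes were called higher and 662 lower, against 1542 and 1328, and Mdm2 was the 1 gene of the 10 still called, with a log2 difference of 0.46 (limma adjusted p = 0.0109). The median log2 fold change of all tumor genes was 0.067 after this removal, against -0.0059 before it. Trp53, Cdkn1b, Cdkn2a, Cdkn2c and Ccng1, none of them called, changed sign.

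**Figure D2:**
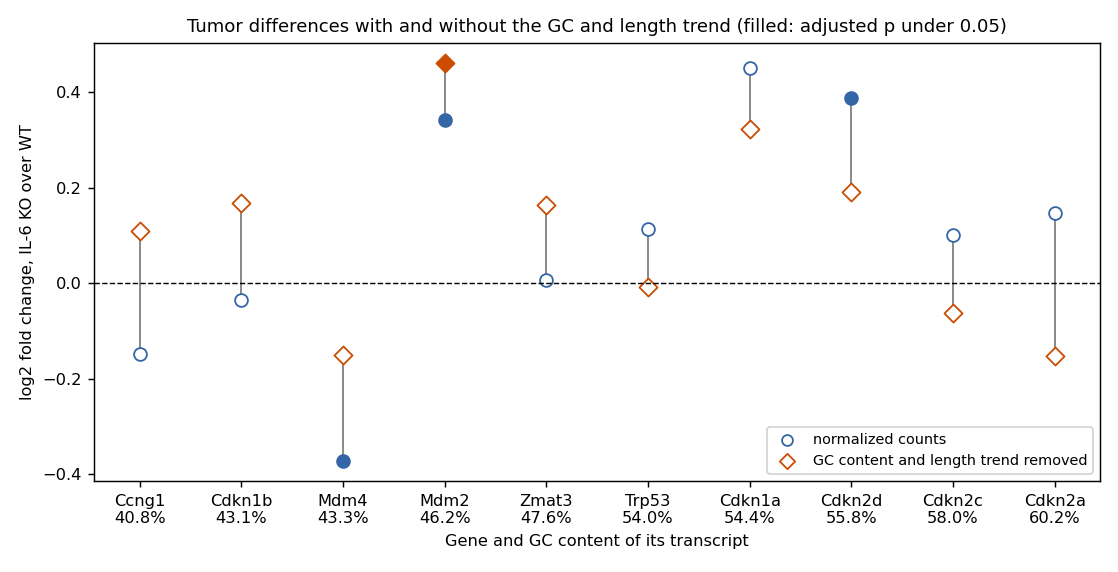
log2 fold change of IL-6 KO over WT in tumor (y axis) for the 10 genes in order of transcript GC content (x axis), from the normalized counts (circles) and with each library's GC content and length trend removed (diamonds), filled where the adjusted p was under 0.05. Mdm2 is filled in both, whereas Mdm4 and Cdkn2d are filled in the first.

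Per kb of the longest protein-coding transcript, the mean level in WT tumor was highest for Trp53 at 3035 ± 64.9 normalized counts per kb (SD, n = 4), followed by Cdkn2a at 2038 ± 70.6. Cdkn2c (923), Cdkn2d (864), Ccng1 (569), Mdm2 (539), Mdm4 (454), Cdkn1b (381), Cdkn1a (168) and Zmat3 (111) followed. In that order the ranges of neighbours overlapped for Cdkn2c and Cdkn2d, for Ccng1 and Mdm2, and for Cdkn1a and Zmat3, and did not overlap for the other neighbours. In IL-6 KO tumor Cdkn2d (1128) stood before Cdkn2c (993) with overlapping ranges, Mdm2 (680) stood above Ccng1 (513) without overlap, and Mdm4 (352) stood next to Cdkn1b (371) with overlap. Cdkn2a remained second, at 2266 ± 265 per kb (SD, n = 4). The length is an annotated one and not the effective length used in quantification. For Cdkn2a it is the 895 nt of Cdkn2a-202, the p19Arf transcript, although the leukemia is labelled Arf-/-. The GC content given for Cdkn2a is of the same transcript.

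The neighbours of Cdkn2a were read because the label of the leukemia names Arf, a product of this locus. Mtap (chr4:89137122-89181081), the nearest protein-coding gene on 1 side and an enzyme of methionine salvage, was measured at 6712 to 7709 normalized counts in WT and at 6938 to 8534 in IL-6 KO tumor (log2 fold change 0.10, limma adjusted p = 0.419). Cdkn2b, the nearest on the other side, and Dmrta1 beyond it have no row in either table. In stroma, Mtap was at 0.00 to 20.6 normalized counts, with a mean of 8.93 that is under the filter. Levels of the tables cannot be compared by a test.

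Of the other genes annotated within 1 Mb of Cdkn2a, Focad was measured at 1788, 1725, 1978 and 1832 normalized counts in WT and at 1390, 1098, 1511 and 1242 in IL-6 KO tumor. All IL-6 KO libraries were below all WT libraries, with a fold of 0.712 (95% interval 0.606 to 0.836, limma adjusted p = 0.0121), and the log2 fold change was -0.41 (adjusted p = 0.0491) with the GC content and length trend removed. Klhl9 had means of 5129 in WT and 4600 in IL-6 KO tumor (log2 fold change -0.16, limma adjusted p = 0.182). Gm13285, Gm12609 and Gm12610 had tumor means of 16.5 to 28.3 and were not called, and Hacd4 and Gm10580 had tumor means under the filter of 10. In stroma, Focad, Hacd4, Klhl9 and Gm12608 were tested and not called (adjusted p 0.888 to 0.990), and Gm26566 was under the filter.

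In stroma, none of the 8 genes passed the test, and no gene separated the genotypes. Here 1 of 12202 genes tested was called in all (0.0082%), and 1117 genes had an unadjusted p under 0.05, none of them among the 8. The genotypes did not overlap for 5.79% of all stroma genes, with IL-6 KO above WT for 2.54% and below for 3.25%. The median residual SD of a gene on the log2 scale was 0.857 in stroma against 0.212 in tumor, so the intervals were wide.

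Trp53 was measured at 93.0, 185, 117 and 117 normalized counts in WT stroma and at 160, 87.7, 135 and 103 in IL-6 KO stroma. The ranges overlapped almost fully, with a log2 fold change of -0.07 (95% interval -0.97 to 0.83, limma adjusted p = 0.977). Mdm2 was measured at 339, 256, 635 and 366 in WT and at 300, 521, 337 and 714 in IL-6 KO stroma (log2 fold change 0.22, 95% interval -0.63 to 1.08, limma adjusted p = 0.894). The lowest of the 8 libraries was from WT and the highest from IL-6 KO hosts, and the groups overlapped. Mdm4 was measured at 280, 584, 659 and 941 in WT and at 201, 605, 499 and 530 in IL-6 KO stroma (log2 fold change -0.41, 95% interval -1.39 to 0.56, limma adjusted p = 0.804). The Mdm2 to Mdm4 ratio ranged from 0.389 to 1.21 in WT and from 0.675 to 1.49 in IL-6 KO stroma.

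Cdkn2c, Cdkn2d and Cdkn1b had lower means in IL-6 KO stroma than in WT stroma, with overlapping ranges, and none passed the test. Cdkn2c was measured at 890, 1196, 664 and 880 normalized counts in WT and at 386, 674, 710 and 627 in IL-6 KO stroma (log2 fold change -0.60, 95% interval -1.30 to 0.09, limma adjusted p = 0.586). Cdkn2d was measured at 322, 580, 402 and 495 in WT and at 159, 439, 465 and 310 in IL-6 KO stroma (log2 fold change -0.47, 95% interval -1.33 to 0.39, limma adjusted p = 0.739). For both genes the lowest 2 of the 8 libraries were IL-6 KO libraries 1 and 4. Cdkn1b was measured at 1075, 948, 769 and 1096 in WT and at 527, 923, 954 and 599 in IL-6 KO stroma (log2 fold change -0.41, 95% interval -1.08 to 0.27, limma adjusted p = 0.712). The same 2 libraries were the lowest. The summed erythroid markers were 63648 and 59936 in these libraries, against 139690 to 200187 in WT stroma and 151714 and 251823 in IL-6 KO libraries 2 and 3. The summed neutrophil markers were 33286 and 27784 in them, 32298 and 8063 in IL-6 KO libraries 2 and 3, and 7655 to 14542 in WT stroma. The part of either in these values was not tested.

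Ccng1 was measured at 55.8, 184, 82.5 and 24.6 normalized counts in WT and at 196, 57.5, 32.3 and 182 in IL-6 KO stroma (log2 fold change 0.41, 95% interval -1.16 to 1.98, limma adjusted p = 0.894). Zmat3 was near the low end of the table, at 17.8 to 25.4 in WT and 5.49 to 59.2 in IL-6 KO stroma (log2 fold change 0.20, 95% interval -1.53 to 1.92, limma adjusted p = 0.964). Ccng1 spread several fold within either genotype, and Zmat3 within IL-6 KO stroma.

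**Figure D3:**
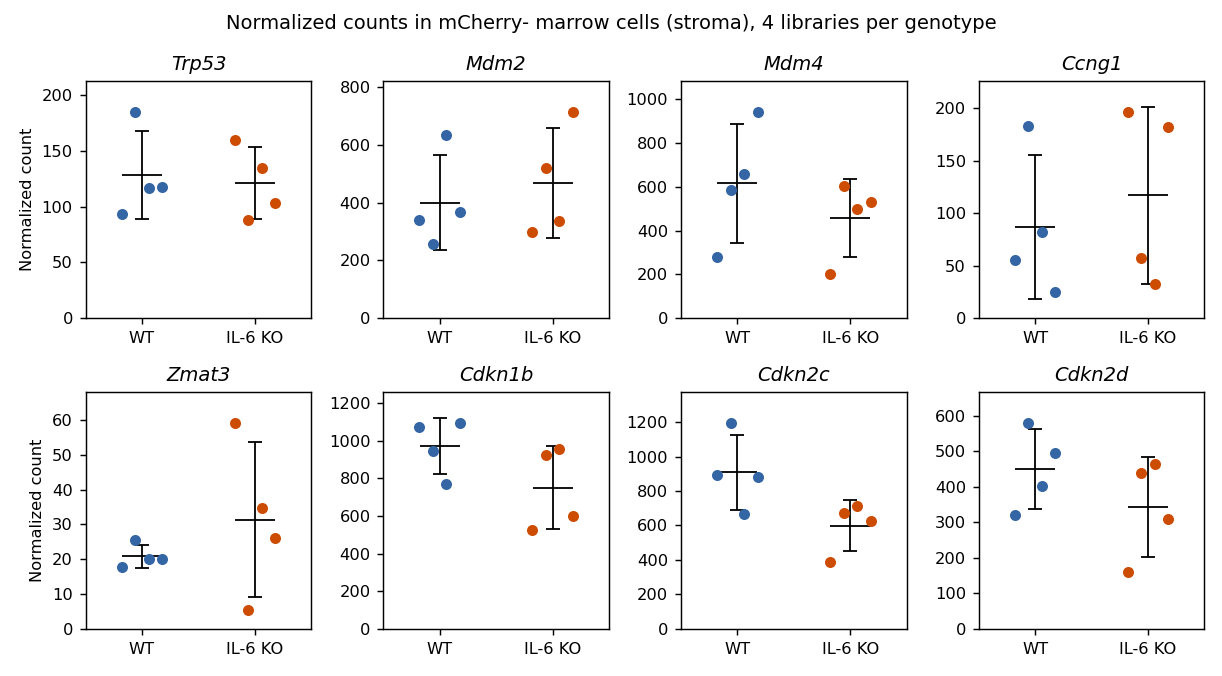
Normalized counts of the 8 genes with a row (y axes, each from 0) in the 4 WT and 4 IL-6 KO stroma libraries, with a point for each library in order of its number and bars for the mean ± SD. The genotypes overlap for all 8 genes.

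**Figure D4:**
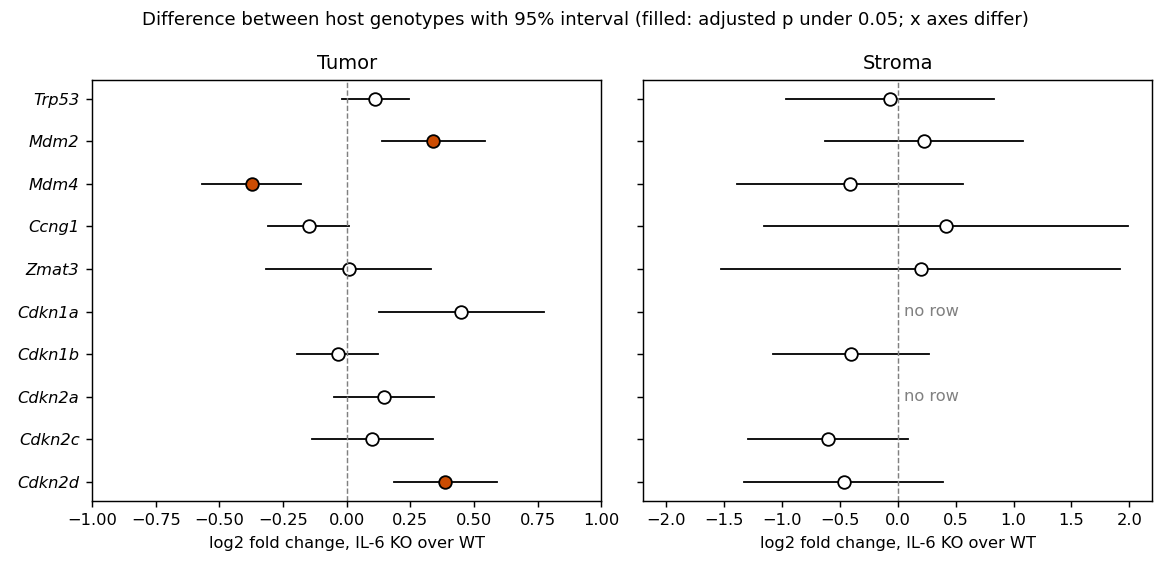
log2 fold change of IL-6 KO over WT (x axes, which differ between panels) with its 95% interval for each gene in tumor and in stroma, filled where the adjusted p was under 0.05. The 3 filled points are Mdm2, Mdm4 and Cdkn2d in tumor, and the stroma intervals all include 0.

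Per kb of transcript, the order in WT stroma was Cdkn2c (367), Cdkn2d (316), Cdkn1b (214), Mdm2 (127), Mdm4 (86.7), Trp53 (68.6), Ccng1 (24.7) and Zmat3 (2.67 normalized counts per kb). Each neighbour overlapped the next except Ccng1 and Zmat3. Trp53, first in tumor, was thus sixth of 8 here. In IL-6 KO stroma the order was the same except that Trp53 (65.0) and Mdm4 (64.6) changed places with overlapping ranges.

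For a comparison of compartments that does not rest on the scale of either table, each gene was ranked within its library among the 11812 genes listed in both tables. Trp53 lay at the percentiles 90.1 to 91.5 in the 8 tumor libraries and 50.2 to 68.7 in the 8 stroma libraries, and Zmat3 at 43.8 to 54.6 against 7.31 to 41.4. These 2 genes ranked higher in every tumor library than in any stroma library. Mdm2 (63.1 to 72.1 against 75.4 to 91.1), Cdkn1b (64.1 to 67.5 against 86.9 to 95.1) and Cdkn2c (69.6 to 76.6 against 82.1 to 95.6) ranked lower in every tumor library. Mdm4, Cdkn2d and Ccng1 overlapped. The compartments also differ in cell type and in table, so these ranks are a description with no test, and the same split of 2, 3 and 3 genes was found with the log2 ratio to the median gene of each library.

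**Figure D5:**
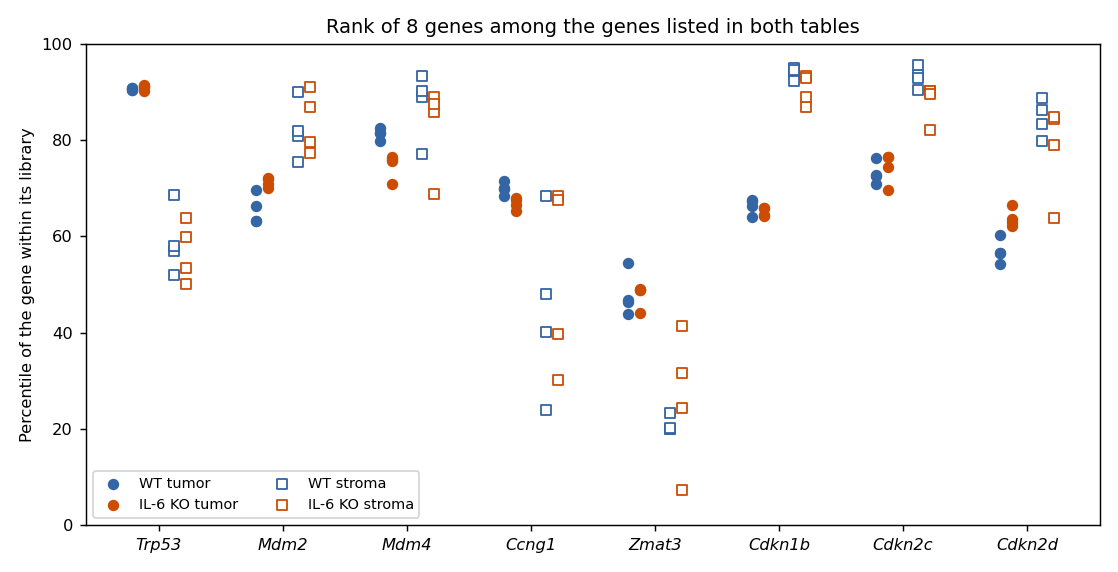
Percentile of each of 8 genes within its library (y axis, among the 11812 genes listed in both tables) in tumor (filled circles) and stroma (open squares), with WT in blue and IL-6 KO in orange and a point for each library. Trp53 and Zmat3 lie higher in tumor, and Mdm2, Cdkn1b and Cdkn2c lie higher in stroma.

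Other known p53 targets were called in both directions in leukemic cells. Of a list of 33, 28 were tested and 6 were called, 2 higher and 4 lower, where 19.8% of all tumor genes were called, 10.6% higher and 9.16% lower. The 28 had a median log2 fold change of 0.00 against -0.01 over all genes. Bax, a proapoptotic BCL-2 family gene, was measured at 1505, 1462, 1418 and 1631 normalized counts in WT and at 2269, 4451, 2004 and 2145 in IL-6 KO tumor, with IL-6 KO library 2 far above the rest (log2 fold change 0.77, limma adjusted p = 0.0352). Fdxr, a mitochondrial reductase gene, rose by 0.37 on the log2 scale (limma adjusted p = 0.0429). Trp53inp1, which encodes a stress-induced p53 cofactor, was at 858 to 982 in WT and fell to between 383 and 572 in IL-6 KO tumor (log2 fold change -0.88, limma adjusted p = 0.00339). Cop1, a ubiquitin ligase gene that acts on p53, was lower by -0.57 on the log2 scale (limma adjusted p = 0.00136), and Rps27l and Ei24 by -0.81 and -0.33 (limma adjusted p = 0.00370 and 0.0434).

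The calls of Cop1, Trp53inp1 and Rps27l held with each library left out in turn, whereas Bax, Fdxr and Ei24 were each lost without 6 or 7 of the 8 libraries in turn (highest adjusted p 0.0825, 0.112 and 0.112). The number called was 3 without IL-6 KO library 4 or WT library 3. With the GC content and length trend removed, 2 were called, both lower, Cop1 (-0.36, adjusted p = 0.0143) and Trp53inp1 (-0.58, adjusted p = 0.0140), and Rps27l was at 0.00 (adjusted p = 0.993). Quantile normalization gave 1 higher and 4 lower. Perp, Phlda3, Eda2r and Gdf15 have no row in either table, and Plk2 was under the filter in tumor.

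Of 15 genes that act on p53 or Mdm2, 8 were called in tumor, 3 higher and 5 lower, where 19.8% of all tumor genes were called, and the median log2 fold change was 0.02. The split was 5 higher and 1 lower with the GC content and length trend removed and 1 higher and 7 lower with quantile normalization. Npm1, the nucleolar protein that binds Arf, rose by 0.35 on the log2 scale (limma adjusted p = 0.00524), and the ubiquitin ligase genes Rffl and Herc2 rose by 0.46 and 0.37 (limma adjusted p = 0.00894 and 0.0257). The acetyltransferase genes Ep300 and Crebbp fell by 0.83 and 0.30 on the log2 scale (limma adjusted p = 0.0193 and 0.0268), and the checkpoint kinase genes Atr and Chek1 and the deacetylase gene Sirt1 were lower as well (adjusted p 0.0336, 0.0349 and 0.0368). With the GC content and length trend removed, Atr (log2 fold change -0.01, adjusted p = 0.922), Chek1 (-0.36, adjusted p = 0.227), Sirt1 (-0.48, adjusted p = 0.0986) and Crebbp (-0.21, adjusted p = 0.148) were not called. Atr, Chek1 and Sirt1 were each called in 2 of the 8 fits with a library left out, Herc2 in 4, and Ep300 and Crebbp in 5. The number called was 3 without IL-6 KO library 1, IL-6 KO library 4 or WT library 3, 4 without WT library 2 and 5 without WT library 4. Npm1 and Rffl were called in each of these fits.

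Of 21 genes of the cyclin, CDK, Rb and E2F axis on which the CDK inhibitors act, 6 were called in tumor, 3 higher and 3 lower, where 19.8% of all tumor genes were called, 10.6% higher and 9.16% lower, and the median log2 fold change was 0.02. Quantile normalization gave 2 higher and 4 lower. Cdk6, a kinase gene whose product the INK4 proteins bind, was measured at 21222, 17347, 19384 and 20336 normalized counts in WT and at 30572, 37484, 29790 and 30386 in IL-6 KO tumor (log2 fold change 0.71, limma adjusted p = 0.00179). Cdk4, whose product they bind as well, moved the other way (-0.27, limma adjusted p = 0.0113). Ccna2, the S phase and G2 cyclin gene, was measured at 11378, 12124, 11635 and 11095 in WT and at 7657, 8457, 8206 and 8063 in IL-6 KO tumor (log2 fold change -0.51, limma adjusted p = 0.00107). Neither Cdk6 nor Ccna2 overlapped between the genotypes. Rb1 was lower by -0.53 (limma adjusted p = 0.0164), and E2f1 and E2f4 were higher by 0.41 and 0.32 (limma adjusted p = 0.0141 and 0.0229). E2f4 was not called without IL-6 KO library 1 or 4 or WT library 2 (highest adjusted p 0.0694), and Rb1, E2f1 and E2f4 were not called with the GC content and length trend removed (adjusted p 0.0831, 0.0640 and 0.130).

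In stroma, none of these list genes was called by limma, and the medians of the targets, the regulators and the CDK axis were 0.29, -0.20 and -0.20 against -0.01 over all genes. The counts with an unadjusted p under 0.05 were 2 of 28, 2 of 15 and 5 of 21, where 9.15% of all stroma genes had one. The smallest p in each list belonged to Bax (log2 fold change 2.26, adjusted p = 0.331), Usp7 (-0.82, adjusted p = 0.442) and Cdk6 (1.20, adjusted p = 0.412). Cdkn3, a phosphatase gene that acts on CDKs, had means of 235 in WT and 74.8 in IL-6 KO stroma without overlap (-1.81, adjusted p = 0.324). Cdkn1c, which encodes the CDK inhibitor p57, had means of 10.6 in WT and 15.1 in IL-6 KO stroma with overlapping ranges (0.34, adjusted p = 0.965). Bax and Cdk6 thus had a positive log2 fold change in both compartments, and Usp7 a negative one (-0.33 in tumor, limma adjusted p = 0.0826). The difference between compartments was not tested.

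The genes most like Trp53 in tumor, by the root mean square difference of centred log2 values over the 8 libraries, were Dip2b (0.0233), Cmtm6 (0.0239) and Crk (0.0275). For Mdm2 they were Cfdp1 (0.0624), Acy1 (0.0655) and Dhx34 (0.0673), and for Cdkn1a they included Golga2 (0.0446) and Ifrd2 (0.0941). In stroma they were Naa40 (0.170), Hdgf (0.190) and Lin54 (0.199) for Trp53 and Ern1 (0.168), Scp2 (0.228) and Esyt1 (0.242) for Mdm2. The profile of each was chosen among all genes with a mean of at least 50.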

How the data were processed

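RNA was sequenced by the authors from sorted tumor and stroma cells, 4 libraries per host genotype and compartment, after ribosomal RNA depletion with a directional kit, as single-end reads. Per the methods and the submitters' processing notes, reads were aligned to mm10 and quantified with Salmon 1.3.0, and the authors scaled the estimated counts with DESeq2 1.28.1. The deposited normalized counts hold a scaled signal that is no longer in whole reads, so the depth of a library is not given by them, and no interval based on read counts was computed. The authors also deposited their own DESeq2 comparisons (mean, log2 fold change, statistic, p and adjusted p), which were not used. Samples were grouped by their labels.

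Each table was tested separately with limma 3.58.1 (R 4.3.3, trended moderated variance) on log2(normalized count + 1), so that fold changes of low genes are understated, for genes with a mean over 10. The test was two-sided, with genotype as the only term, Benjamini-Hochberg adjustment and a threshold of 0.05. Intervals are at 95% and cover this spread between libraries only. The script was tested on simulated data. GENCODE vM21 (GRCm38) gave positions and transcripts for 13338 of 13344 stroma and 15069 of 15080 tumor identifiers. Near-identical copies were sought with BLAST 2.17.0 (at least 97% identity over at least 150 nt). Python 3.11.15 with pandas 2.3.3, SciPy 1.17.1 and matplotlib 3.10.9 was used for tables and figures.

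The named genes were the 10 genes, 3 other CDK inhibitor genes, genes with a row within 1 Mb of Cdkn2a, up to 6 genes per pathway list and table with the smallest p, the 3 nearest profiles of Trp53, Mdm2 and Cdkn1a, and cell type markers. The result for 1 gene that this rule gives is not reported here. Chek1 and Sirt1 fall outside this rule and were named after their values were seen, as was the ratio of Mdm2 to Mdm4. The genes and the lists were chosen with earlier results of these data known. Alternatives were other pseudocounts, filters, normalizations, array weights, a replicate block, removal of each library's GC content and length trend (loess, span 0.3) and leaving out each library.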

Additional observations from a re-analysis of the deposited data

Results flagged for a closer look

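Within each genotype and compartment, the 36 groups of 4 libraries were searched for a library far from the others, by Dixon's ratio of the gap to the range against its 95% critical value. Chance gives such a library in about 1 in 20 groups, and 2 were found. Mdm4 in IL-6 KO tumor library 2 was at 2119 normalized counts, with the nearest library at 2592 (ratio 0.871). Zmat3 in the same library was at 725, with the nearest at 899 (ratio 0.954). This library also had the highest Bax (4451) and Cdkn2a (2364) of its group. Its sum of neutrophil markers (19262) was the highest as well. IL-6 KO tumor libraries 1 and 4 were near it at 18344 and 17163, and library 3 was at 7944. The part of these values was not tested. Without IL-6 KO tumor library 2, Mdm4 was called with a log2 fold change of -0.30.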

How the results depend on the processing

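The number of genes called in tumor was 2870, and 1569 to 3327 with each library left out in turn. Of the 10 genes, 1 was called with the GC content and length trend removed, where 2137 of 14493 tumor genes were called, 1475 higher and 662 lower against 1542 and 1328, and 1 to 3 with a library left out. For the p53 targets these counts were 2 and 3 to 5, and for the p53 regulators 3 to 8 with a library left out. In stroma, 4 genes were called with array weights and 1 to 3 with a library left out, against 1, and none of the 8 genes was called under any alternative run.

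Without the GC content and length trend, the tumor log2 fold change of Trp53 was -0.0085, of Cdkn1b 0.17, of Cdkn2a -0.15, of Cdkn2c -0.062 and of Ccng1 0.11, each of the opposite sign. Zmat3 in tumor was at -0.0029 with quantile normalization and between -0.082 and 0.14 with a library left out. In stroma, leaving out a library gave -0.21 to 0.12 for Trp53, -0.0080 to 0.47 for Mdm2, -0.063 to 0.90 for Ccng1 and -0.23 to 0.84 for Zmat3, and array weights gave -0.62 for Zmat3. The cause was not tested. Of 90 tumor values with all libraries, 80 kept direction and side of the threshold, as did 66 of 80 with a library left out, 70 of 71 in stroma and 59 of 64.

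With the replicate number as a block, 2230 tumor genes, 3 of the 10 genes, 6 targets, 6 regulators (4 higher and 2 lower, against 3 and 5) and 5 genes of the CDK axis were called, and in stroma 1 gene and none of the 8. Same-numbered WT and IL-6 KO libraries did not deviate together (r -0.02 to 0.00 in tumor and -0.03 to 0.13 in stroma). In each table, 0 of 4 numbers matched best across genotypes. With 4 libraries per group these values cannot decide whether the numbers pair the libraries. Whether tumor and stroma libraries of the same number belong together was not tested. Low values, such as Zmat3 in stroma, are limited by the depth, which the methods give as 1 approximate figure per sample and these values do not give per library.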
